A study of Mus musculus with 12 samples.

Results

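The genes described here are the cardiac myosin heavy chains Myh6, Myh7 and Myh7b, the cardiac myosin light chains Myl2, Myl3, Myl4 and Myl7, and the cardiac light chain kinase gene Mylk3. They were chosen by symbol, and all 8 were found among the 23337 genes listed in the count tables. RNA was measured by bulk RNA-seq in 12 samples of mouse cardiomyocytes (CMs), in 4 groups of 3. KO animals were Srf-flox/flox and lose both copies of Srf, which encodes serum response factor (SRF), a transcription factor that binds CArG boxes in muscle genes. CTRL animals were Srf-flox/+, so CTRL CMs also received Cre and kept only 1 intact copy of Srf. Animals in both groups were injected with AAV9-cTNT-Cre, a virus that expresses Cre from the cardiac troponin T promoter, at a low dose that recombines only a part of the CMs, and they carried fluorescent reporters that Cre switches on. Neonatal animals were injected on postnatal day (P) 1 and their CMs isolated at P14, and adult animals were injected at P60 and their CMs isolated at P90. Per the study's methods, the heart apex was dissociated after collagenase perfusion and fluorescent CMs were sorted by flow cytometry. In such bulk samples, fewer cells of a type and less RNA per cell cannot be told apart.

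Cardiac muscle myosin is a motor built from heavy chains, each with a head that hydrolyses ATP and pulls on actin, and from an essential and a regulatory light chain that wrap the neck of each head. In the mouse ventricle the slow beta heavy chain (Myh7) prevails before birth and the fast alpha heavy chain (Myh6) after it, and the light chains of the ventricle (Myl2, regulatory, and Myl3, essential) stand beside those of the atrium and of the early heart tube (Myl7, regulatory, and Myl4, essential). The kinase encoded by Mylk3 phosphorylates the ventricular regulatory light chain. Myh6 and Myh7 lie next to each other on the minus strand of chromosome 14 (mm10, 54941921 to 54966607 and 54970688 to 54994549). Myh7b lies on chromosome 2 (155611212 to 155634307), Myl2 on chromosome 5 (122100980 to 122106854), Myl3 on chromosome 9 (110763681 to 110769794), Myl7 and Myl4 far apart on chromosome 11 (5896637 to 5898782 and 104550663 to 104587219) and Mylk3 on chromosome 8 (85324929 to 85365324).

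Because SRF was the deleted factor, the 250 bases before the start of each gene were searched for the CArG box, the 10-base SRF motif, in the RefSeq promoter table (build GRCm38.p6). A start within 50 bp of the counted gene start was present for 7 of the 8 genes, and the table gave none for Myl2. A CArG box on either strand was present in 2 of the 7, Myl3 and Myl7, and in 1.47% of 32851 promoters of the same length. With 1 letter allowed to differ, Myh6 and Myh7b also matched, and 18.6% of all promoters did. The 150 bases before the start are shown for the CArG-bearing pair and for the neighbouring heavy chain genes, with the exact CArG box and the MCAT element CATTCC in capitals.
Myl3, chr9:110763528-110763677, plus strand: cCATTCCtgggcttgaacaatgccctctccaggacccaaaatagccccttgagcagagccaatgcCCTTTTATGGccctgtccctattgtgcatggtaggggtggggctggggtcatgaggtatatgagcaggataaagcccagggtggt
Myl7, chr11:5898783-5898932, minus strand: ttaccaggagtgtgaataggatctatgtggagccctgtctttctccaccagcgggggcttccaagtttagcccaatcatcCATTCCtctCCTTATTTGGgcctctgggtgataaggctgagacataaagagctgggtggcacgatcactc
Myh6, chr14:54966608-54966757, minus strand: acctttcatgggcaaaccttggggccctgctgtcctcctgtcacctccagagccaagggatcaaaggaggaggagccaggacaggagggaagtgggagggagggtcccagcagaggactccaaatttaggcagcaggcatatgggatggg
Myh7, chr14:54994550-54994699, minus strand: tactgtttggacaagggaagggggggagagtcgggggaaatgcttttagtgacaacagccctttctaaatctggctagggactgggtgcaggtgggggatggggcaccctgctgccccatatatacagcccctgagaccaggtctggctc
In Myl3 the box CCTTTTATGG ends 76 bases before the start, and in Myl7 the box CCTTATTTGG ends 52 bases before it. In Myh6 the near-match CCAAATTTAG, which overlaps a further near-match shifted by 1 base, ends 22 bases before the start, another near-match, CCTTTCATGG, begins 149 bases before it, and in Myh7 no window came within 1 letter. Searched on both strands in the full 250 bases, MCAT was found in Myh6, Myl3, Myl7 and Mylk3 and in 12.6% of all promoters, the GATA site AGATAA in Myh7b and in 9.99%, and the MEF2 site and the TATA box TATAAA in none of the 7, against 0.508% and 12.4% of all promoters.

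The heavy chain genes carry microRNAs in their introns, which are known to act on muscle gene programmes and are shown because their seeds are nearly the same. The seed, bases 2 to 8 of the mature RefSeq sequence, is in capitals.
mmu-miR-208a-3p, in an intron of Myh6: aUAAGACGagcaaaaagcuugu
mmu-miR-208b-3p, in an intron of Myh7: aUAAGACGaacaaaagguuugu
mmu-miR-499-5p, in an intron of Myh7b: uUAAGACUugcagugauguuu
The seeds of miR-208a-3p and miR-208b-3p were identical over 7 bases, and miR-499-5p shared 6 of the 7 with each. Mature microRNAs were not measured, since the libraries were made from polyadenylated RNA.

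Total counts were 9740389 to 23103460 per sample, and same-group samples differed by more than counting noise in every pair. Srf, the targeted gene, was at 63.9, 57.1 and 49.4 CPM (counts scaled to a common library size with TMM factors) in P14 CTRL and at 32.1, 27.5 and 9.74 CPM in P14 KO. It was at 71.1, 59.1 and 81.1 CPM in P90 CTRL and at 32.8, 28.9 and 28.1 CPM in P90 KO, so no KO sample reached the CTRL range at either stage. With edgeR the Srf difference passed the adjusted threshold at P90 (log2 fold change -1.23 ± 0.13 SE, adjusted p = 0.00347) and missed it at P14 (-1.30 ± 0.36, adjusted p = 0.0628), where blocking on replicate number gave an adjusted p of 0.0220. With all 12 samples sharing 1 estimate of the spread, the adjusted p of Srf was 0.00999 at P14 and 0.180 at P90. The CM markers Tnnt2, Actn2, Ryr2, Nkx2-5 and Tnni3 summed to 19953 to 27808 CPM in every sample, while the 5 markers each of endothelial cells, fibroblasts and immune cells summed to 141 to 327, 30.7 to 167 and 4.45 to 11.8 CPM. Fibroblast markers averaged 112 CPM in P14 CTRL and 36.9 in P90 CTRL.

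Together the 8 genes took 7.32% ± 0.78 of all counts in P14 CTRL, 5.40% ± 0.30 in P14 KO, 6.53% ± 0.27 in P90 CTRL and 5.14% ± 0.26 in P90 KO (SD, n = 3 each). The KO and CTRL samples of a stage did not overlap. Per kilobase of exon (RPKM), the 3 leading genes in P14 CTRL were Myl3 at 11929 ± 1892, Myh6 at 9161 ± 1309 and Myl2 at 8042 ± 1898 (SD, n = 3), where Myh6 and Myl2 overlapped and all Myl3 samples lay above all Myh6 samples. Mylk3 followed at 427 ± 63.9 RPKM, then Myh7 at 81.4 ± 59.3, Myh7b at 17.1 ± 1.77, Myl4 at 4.39 ± 0.74 and Myl7 at 1.56 ± 1.27, with no overlap between neighbours from Mylk3 down. The same 3 genes led in P90 CTRL, with Myl3 at 9767 ± 662, Myh6 at 9101 ± 767 and Myl2 at 8205 ± 269 RPKM, where Myl3 and Myh6 overlapped and Myl2 lay below both. In P14 KO the order of these 3 was different, with Myl2 at 6702 ± 441, Myh6 at 5838 ± 550 and Myl3 at 4725 ± 1342 RPKM, where Myl2 lay above the others and Myh6 and Myl3 overlapped.

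**Figure D1:**
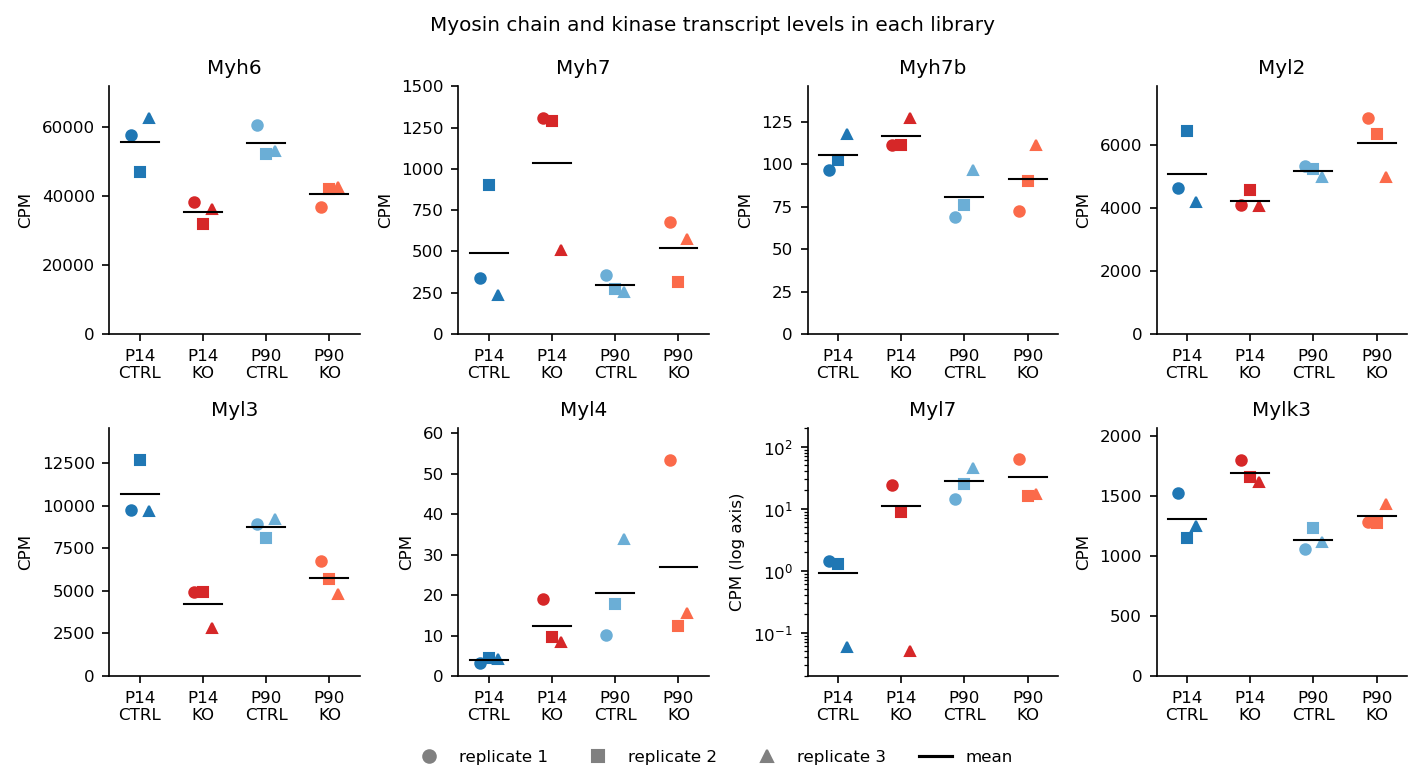
Transcript levels of the 8 genes in CPM, 1 point per library with the replicate number as its shape, the mean as a line, and a log axis for Myl7 only. Myh6 and Myl3 lie lower in every KO library than in every CTRL library of the same stage, and Myl7 drops to 1 count in replicate 3 of both P14 groups.

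The first comparison asked how loss of SRF in neonatal CMs changed the myosin genes by P14. The adult ventricular chains Myh6 and Myl3 were lower in KO CMs and the atrial essential chain Myl4 was higher, while Myh7 and Myl7 were higher on average but varied strongly between libraries. With edgeR's quasi-likelihood test and Benjamini-Hochberg adjustment over 12546 genes, 3 of the 8 passed an adjusted p of 0.05, of which 1 rose and 2 fell. Across all genes tested 8.59% passed, 3.99% as higher and 4.6% as lower. The KO and CTRL samples did not overlap for 4 of the 8 (Myl4 and Mylk3 higher, Myh6 and Myl3 lower), against 32.7% of all genes tested. The calls depended on which libraries were in the fit, since 0 of the 8 passed without KO replicate 1 or without KO replicate 2, and 1 of the 8 passed without CTRL replicate 1. Calls over all genes also fell, from 1078 to between 111 and 1004 without 1 library. In these fits the log2 fold change ran from -0.76 to -0.56 for Myh6, from -1.45 to -1.10 for Myl3 and from 1.24 to 1.90 for Myl4.

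Myh6, the main motor of the adult mouse heart, was at 57567, 46962 and 62538 CPM in P14 CTRL and at 38337, 31806 and 36321 CPM in P14 KO. The highest KO sample stayed below the lowest CTRL sample. The fall of Myh6 was -0.65 ± 0.16 on the log2 scale (adjusted p = 0.0466), and it missed the threshold with the replicate number as a block (adjusted p = 0.0598) and without any 1 of the 6 libraries (adjusted p from 0.0529 to 0.229). Myh7, the fetal and stress-associated beta chain, was at 339, 903 and 236 CPM in CTRL and at 1306, 1288 and 510 CPM in KO. KO replicate 3 fell inside the CTRL range and CTRL replicate 2 stood well above the other CTRL samples. The Myh7 difference of 1.06 ± 0.52 missed the threshold (adjusted p = 0.242), with an adjusted p of 0.0339 with the block and of 0.0356 without CTRL replicate 2. Myh7b, a slow-type heavy chain expressed at a low level, was at 96.4 to 118 CPM in CTRL and at 111 to 127 CPM in KO, with a difference of 0.14 ± 0.12 (adjusted p = 0.511).

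Myl3, the ventricular essential light chain, showed the largest fall among the 8 at P14. It was at 9762, 12675 and 9701 CPM in CTRL and at 4943, 4935 and 2851 CPM in KO. The groups were far apart. KO replicate 3, which had the least Srf, had the least Myl3, but also the least Myh7, Myl4 and Myl7, whose KO means were above CTRL. Myh6 was lowest in KO replicate 2. The fall of Myl3 was -1.34 ± 0.23 on the log2 scale (adjusted p = 0.0163). Myl4, the essential chain of the atrium and of the early heart, was at 3.14, 4.40 and 4.09 CPM in CTRL and at 19.0, 9.71 and 8.48 CPM in KO. Every KO sample was above every CTRL sample, and in both groups Myl4 stayed far below Myl3. Myl4 rose by 1.67 ± 0.33 (adjusted p = 0.0226). Without KO replicate 1 or KO replicate 2 neither Myl3 nor Myl4 passed, with adjusted p up to 0.0647 for both, and without CTRL replicate 1 Myl4 did not (adjusted p = 0.0631).

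Myl2, the ventricular regulatory light chain, was at 4633, 6453 and 4185 CPM in P14 CTRL and at 4103, 4563 and 4060 CPM in P14 KO. The ranges overlapped, and the difference of -0.27 ± 0.18 did not pass (adjusted p = 0.393). Myl7, the atrial regulatory light chain, had 30, 26 and 1 counts in CTRL and 453, 187 and 1 in KO. Replicates 1 and 2 of KO were above all CTRL samples, and replicate 3 of both groups was below the floor of 3 counts. The Myl7 difference of 3.53 ± 1.33 missed the threshold (adjusted p = 0.143), with an adjusted p of 0.0113 with the block and of 0.0498 without KO replicate 3. Mylk3 was at 1528, 1150 and 1251 CPM in CTRL and at 1799, 1664 and 1619 CPM in KO. Its samples did not overlap, and the difference of 0.37 ± 0.13 did not pass (adjusted p = 0.129), though it did with all 12 samples in the fit (0.0443). With total counts in place of TMM the Mylk3 difference was 0.58 (adjusted p = 0.0337), but that setting also raised the median of all genes.

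The adult comparison asked whether the same loss in CMs that had already matured changed the myosin genes by P90. No myosin gene passed the test. Mean Myh6 and Myl3 were below CTRL, and mean Myh7, Myh7b, Myl2, Myl4, Myl7 and Mylk3 were above it. Of the genes with higher means, all but Mylk3 overlapped between groups, the atrial light chains included. With edgeR 0 of the 8 passed an adjusted p of 0.05, where 0.39% of 11808 genes did. At an unadjusted p under 0.05 there were 4 of the 8 (Myh6, Myh7, Myl3 and Mylk3) and 1910 of the 11808 genes, and DESeq2 called 2 (Myh6 with an adjusted p of 0.00329 and Myl3 with 0.000492). The samples did not overlap for 3 of the 8 (Mylk3 higher, Myh6 and Myl3 lower), against 21.6% of all genes tested.

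Myh6 was at 60690, 52258 and 53025 CPM in P90 CTRL and at 36967, 41978 and 42692 CPM in P90 KO. No KO sample reached a CTRL sample, and the log2 difference was -0.44 ± 0.10 (adjusted p = 0.0793). Myh7 was at 359, 270 and 256 CPM in CTRL and at 677, 313 and 578 CPM in KO. KO replicate 2 lay within the CTRL range and the other KO samples above it, with a difference of 0.83 ± 0.24 (adjusted p = 0.135). The adjusted p of Myh7 was 0.0449 without KO replicate 2 and 9.4e-11 with no filter on low counts, a setting in which 701 genes passed in place of 46. With no filter the log2 difference was nearly the same, 0.84. The lower p thus came from how that fit estimated the spread, and it is not a measure of these overlapping samples. Myh7b, at 69.1 to 96.4 CPM in CTRL and 72.4 to 111 CPM in KO, differed by 0.18 ± 0.16 (adjusted p = 0.619).

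Myl3 was at 8952, 8106 and 9254 CPM in P90 CTRL and at 6737, 5679 and 4821 CPM in P90 KO. The groups were separate, and the difference was -0.60 ± 0.12 (adjusted p = 0.0620). The adjusted p of Myl3 was 0.0488 with total counts, 2.45e-05 with no filter and 0.0239 without KO replicate 1. Myl2 was at 5333, 5245 and 5004 CPM in CTRL and at 6855, 6364 and 4985 CPM in KO. Its KO samples ran from just below to above the CTRL range, with a difference of 0.23 ± 0.12 (adjusted p = 0.359). Mylk3 was at 1057, 1233 and 1114 CPM in CTRL and at 1282, 1277 and 1438 CPM in KO, a difference of 0.24 ± 0.10 (adjusted p = 0.265). Myl4 was at 10.2, 17.8 and 33.8 CPM in CTRL and at 53.2, 12.4 and 15.5 CPM in KO. Myl7 was at 14.5, 24.7 and 45.3 CPM in CTRL and at 64.0, 15.7 and 17.4 CPM in KO. For both atrial light chains 1 sample of each group, CTRL replicate 3 and KO replicate 1, was high and the others overlapped, with differences of 0.41 ± 0.53 (adjusted p = 0.743) and 0.22 ± 0.51 (adjusted p = 0.868).

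**Figure D2:**
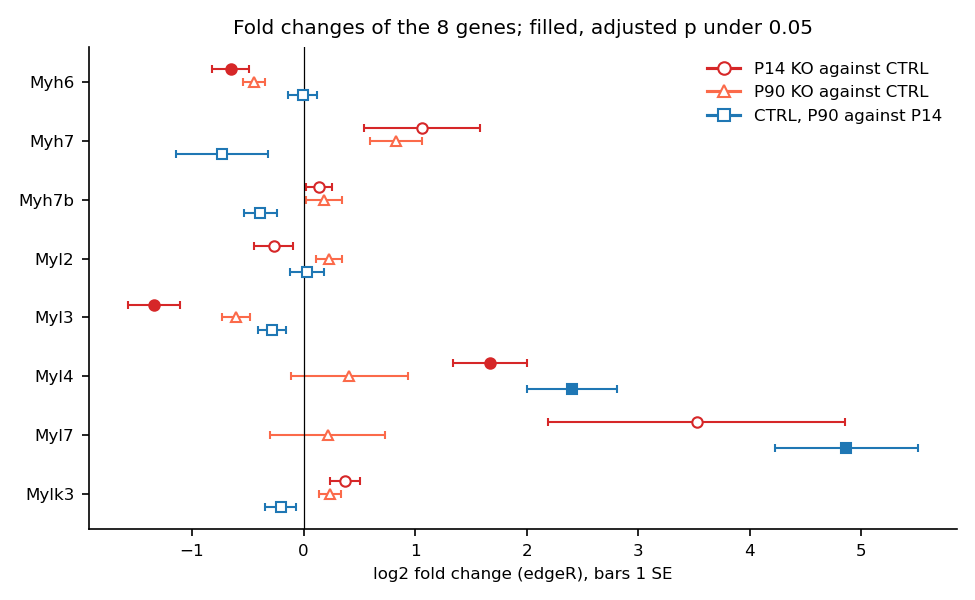
The log2 fold change of each gene with its standard error from edgeR, for KO against CTRL at P14 and at P90 and for CTRL at P90 against P14; filled symbols passed an adjusted p of 0.05. Myh6, Myl3 and Myl4 are filled at P14, no gene is at P90, and Myl4 and Myl7 are filled for age.

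Whether the KO effect itself differed between the stages was tested as an interaction in all 12 samples. With edgeR 0 of the 8 passed an adjusted p of 0.05, where 1.78% of 12841 genes did, 0.818% with a higher and 0.958% with a lower effect at P14. At an unadjusted p under 0.05 there were 3 of the 8 (Myl2, Myl3 and Myl7) and 2440 of the 12841 genes, and DESeq2 called 0 of the 8. The neonatal minus the adult log2 effect was -0.73 ± 0.28 for Myl3 (adjusted p = 0.176) and -0.20 ± 0.18 for Myh6 (adjusted p = 0.592). It was 3.30 ± 1.47 for Myl7 (adjusted p = 0.246), 1.28 ± 0.77 for Myl4 (adjusted p = 0.402) and -0.49 ± 0.22 for Myl2 (adjusted p = 0.25). For Myh7, Myh7b and Mylk3 it was 0.25 ± 0.64, -0.04 ± 0.22 and 0.14 ± 0.16.

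Between P14 and P90 in CTRL CMs, both atrial light chains were higher at P90 and no ventricular chain passed the test. Of the 8, 2 passed an adjusted p of 0.05, both as higher at P90, where 29.3% of 12294 genes passed, 14.5% as higher and 14.9% as lower. Myl7 rose by 4.87 ± 0.64 on the log2 scale (adjusted p = 0.000965) and Myl4 by 2.41 ± 0.40 (adjusted p = 0.00291), and both passed without any 1 library. The Myl7 change rests on 1 to 30 counts at P14 and on 227 to 573 at P90. The atrial markers Sln (5.36 ± 0.63, adjusted p = 0.000545), Mybphl (3.42 ± 0.60, adjusted p = 0.00372) and Dkk3 (3.23 ± 0.53, adjusted p = 0.00266) also rose with age in CTRL. These markers are named because they were most like Myl7 or Myl4 over the same samples. Not all of the atrial list rose, since Nppa differed by -0.47 ± 0.59 (adjusted p = 0.575) and Kcna5 was lower at P90. The part of the atrial markers in the rise of Myl4 and Myl7 was not tested. The samples did not overlap for 3 of the 8 (Myl4 and Myl7 higher, Myl3 lower), against 44.9% of all genes tested. Myl3 was lower at P90 by -0.29 ± 0.13 (adjusted p = 0.124) and Myh7b by -0.39 ± 0.15 (adjusted p = 0.0782), Myh7 by -0.73 ± 0.41 (adjusted p = 0.213) and Mylk3 by -0.21 ± 0.13 (adjusted p = 0.277). The differences of Myh6 (-0.01 ± 0.13) and Myl2 (0.03 ± 0.15) were below their errors. The stages came in separate tables, so age and any difference in handling cannot be told apart.

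The genes form 3 pairs in which an isoform of the early heart or the atrium stands against one of the mature ventricle, and the ratio within a pair does not depend on the scaling of a library. The share of Myh7 in Myh6 plus Myh7, per kilobase, was 0.587%, 1.89% and 0.378% in P14 CTRL and 3.31%, 3.91% and 1.39% in P14 KO. In P90 CTRL it was 0.591%, 0.517% and 0.483%, and in P90 KO 1.81%, 0.743% and 1.34%. Myh7 was thus at most 3.91% of the pair in any sample, KO included. The log2 Myh7/Myh6 ratio was higher in KO by 1.83 at P14, where the groups overlapped (exact two-sided permutation p = 0.2), and by 1.21 at P90, where they did not (exact p = 0.1). With 3 samples against 3 no exact test can go below 0.1, and the smallest Benjamini-Hochberg value over the 19 ratio and sum tests was 0.237.

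The share of Myl4 in Myl3 plus Myl4 was 0.0327%, 0.0353% and 0.0429% in P14 CTRL and 0.390%, 0.200% and 0.302% in P14 KO. All KO samples were above all CTRL samples, with a log2 difference of 2.97 in the Myl4/Myl3 ratio (exact p = 0.1). In P90 CTRL the share was 0.116%, 0.223% and 0.370% and in P90 KO 0.797%, 0.221% and 0.325%. There the groups overlapped, with a difference of 0.86 (exact p = 0.5). KO replicates 2 and 3 at P14 lay within the P90 CTRL range for this pair, and KO replicate 1 just above it. The log2 Myl7/Myl2 ratio differed by 2.46 at P14 (exact p = 0.5) and by -0.18 at P90 (exact p = 0.8), with overlap at both stages, and the P14 value, which rests on libraries with 1 count of Myl7, ran from 0.72 without KO replicate 1 to 5.16 without KO replicate 3. Stage differences of the 3 KO effects were 0.62 for Myh7/Myh6, 2.64 for Myl7/Myl2 and 2.10 for Myl4/Myl3 (exact p = 0.64, 0.4 and 0.165, permuting genotype within each stage).

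**Figure D3:**
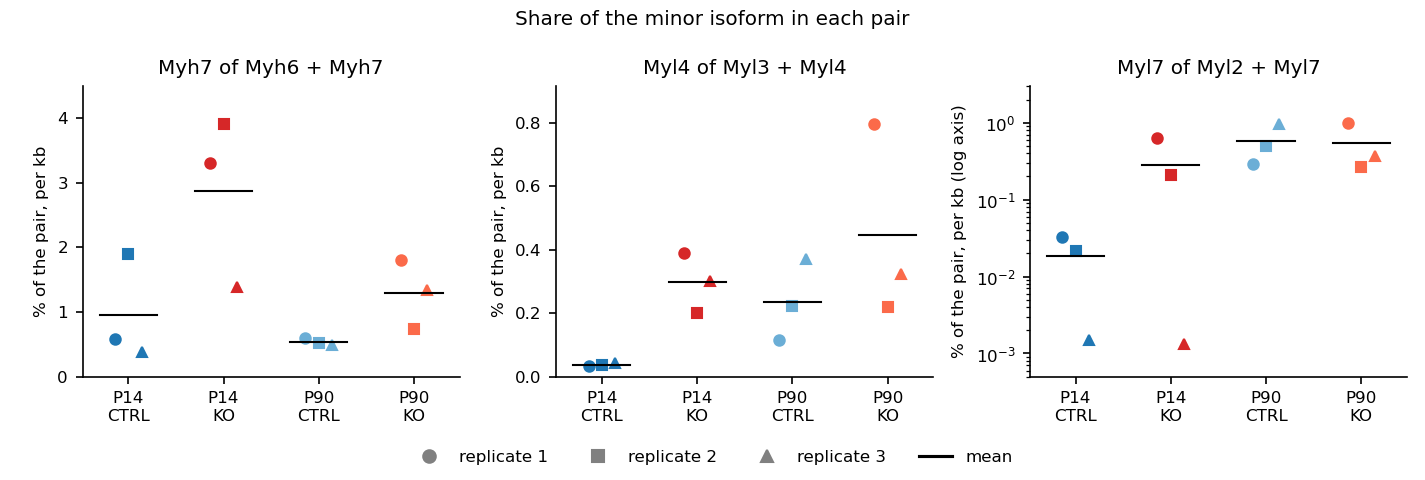
Share of the fetal or atrial isoform in its pair, in percent per kilobase, 1 point per library with the group mean as a line and a log axis for Myl7 only. The Myh7 share reaches 3.91% in a P14 KO library, and the Myl4 share of all P14 KO libraries is above that of all P14 CTRL libraries.

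Myl4 and Myl7 are also expressed in atrial CMs, so the atrial markers were examined beside them. Across the 12 samples the 2 non-member genes whose log2 CPM followed Myl7 most closely were Sln, the atrial inhibitor of the calcium pump (r = 0.982), and Mybphl, an atrial relative of myosin binding protein C (r = 0.968). For Myl4 they were Dkk3, an atrial marker (r = 0.944), and Lgals3 (r = 0.889). Sln had 272, 63 and 0 counts in P14 KO and 6, 13 and 1 in P14 CTRL, in the same order of samples as Myl7 in KO. Of the 11 atrial markers, the number above the floor of 3 counts in any sample was 8 in P14 CTRL, 10 in P14 KO, 10 in P90 CTRL and 11 in P90 KO. Without Nppa, which is also a stress gene of ventricular CMs, the other 10 summed to between 32.0 and 43.2 CPM in P14 CTRL and between 28.5 and 80.6 in P14 KO, and at P90 to between 70.2 and 101 in CTRL and between 77.4 and 167 in KO. With Nppa it was 88.7 to 540, 324 to 1212, 232 to 323 and 182 to 631 CPM. None of the 11 was at 0 in all samples of a group, though Bmp10 was at 0 in 2 of 3 P14 CTRL samples and had 151 counts in P14 KO replicate 1. Not all of the list varied as Myl7 did. In P14 KO, Kcnj3 was at 11.86, 11.57 and 10.96 CPM and Nppa and Stard10 were highest in replicate 2, and in CTRL Kcna5 was at 5.79 to 11.7 CPM at P14 and 3.82 to 5.11 at P90. Sln, Mybphl and Dkk3, which were picked for their likeness to Myl7 or Myl4, varied with them from sample to sample, and their part in these differences was not tested. The ventricular markers Irx4, Hey2 and Lbh were above the floor in every group.

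**Figure D4:**
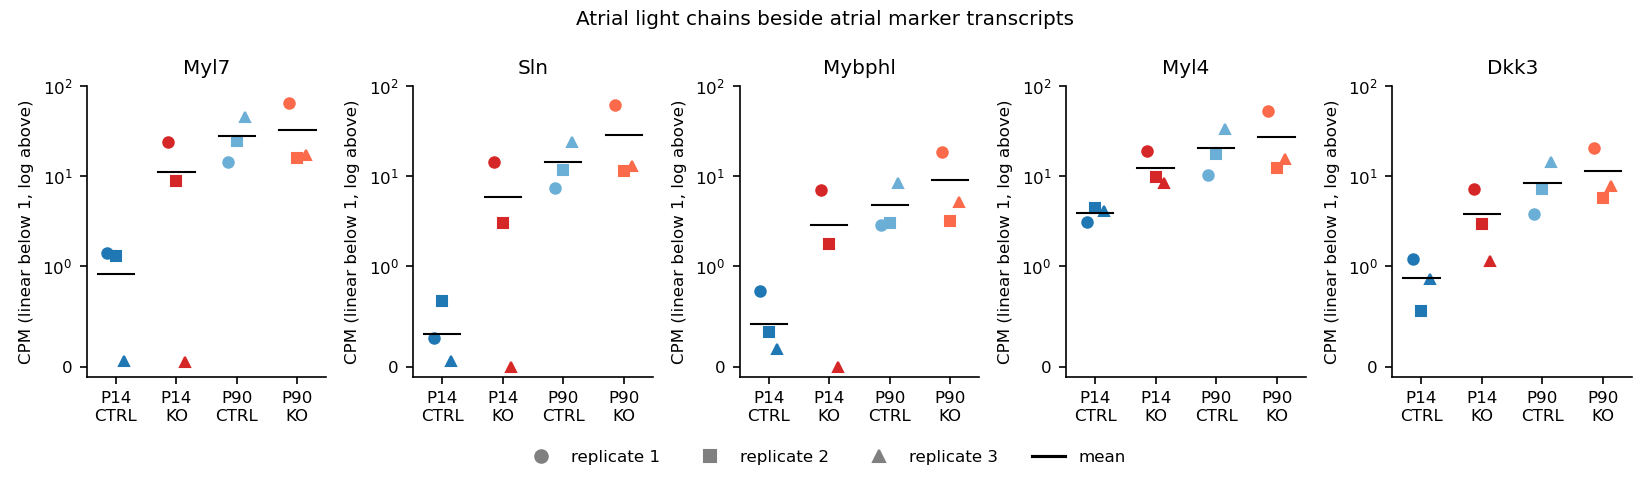
CPM of the atrial light chains Myl7 and Myl4 and of the atrial markers Sln, Mybphl and Dkk3, 1 point per library with the group mean as a line, on an axis that is linear below 1 and logarithmic above. In P14 KO all 5 are highest in replicate 1 and lowest in replicate 3, and in P90 KO all are highest in replicate 1.

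The classes of chain were then summed per kilobase. Heavy chain RPKM (Myh6, Myh7 and Myh7b) was lower in KO by -0.61 on the log2 scale at P14 and by -0.44 at P90, with no overlap at either stage (exact p = 0.1 each). Essential light chain RPKM (Myl3 and Myl4) was lower by -1.37 at P14 and by -0.62 at P90, again with no overlap (exact p = 0.1 each). Regulatory light chain RPKM (Myl2 and Myl7) differed by -0.24 at P14 and by 0.21 at P90, with overlap at both (exact p = 0.2 and 0.4). Each sum is nearly that of its leading gene, Myh6, Myl3 or Myl2.

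The ratio of regulatory light chain to heavy chain RPKM was 0.767, 1.29 and 0.639 in P14 CTRL, 0.997, 1.32 and 1.06 in P14 KO, 0.840, 0.962 and 0.909 in P90 CTRL and 1.76, 1.45 and 1.11 in P90 KO. It overlapped at P14 (log2 difference 0.38, exact p = 0.3, from 0.16 without CTRL replicate 3 to 0.67 without CTRL replicate 2) and did not at P90 (0.65, exact p = 0.1). The ratio of essential light chain to heavy chain was 1.14, 1.79 and 1.04 in P14 CTRL, 0.845, 1.01 and 0.524 in P14 KO, 0.993, 1.05 and 1.18 in P90 CTRL and 1.22, 0.909 and 0.755 in P90 KO. It was separate at P14 (-0.75, exact p = 0.1, and -0.48 without KO replicate 3) and overlapped at P90 (-0.18, exact p = 0.5, from -0.37 without KO replicate 1 to -0.02 without KO replicate 3).

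Light and heavy chain transcripts differ greatly in length, and the balance of short to long transcripts also differed between libraries. Over all other genes, the counts in those under 1000 bp divided by the counts in those over 5000 bp were 0.404, 0.571 and 0.374 in P14 CTRL, 0.333, 0.394 and 0.322 in P14 KO, 0.508, 0.421 and 0.463 in P90 CTRL and 0.760, 0.625 and 0.496 in P90 KO. In P14 CTRL, P14 KO and P90 KO the library with the highest balance (replicates 2, 2 and 1) also had the highest regulatory light to heavy chain ratio. In P90 CTRL it did not, since replicate 1 had the highest balance, 0.508, and the lowest ratio, 0.840. The median log2 fold change of other short genes was -0.21 at P14 and 0.23 at P90, and that of other long genes 0.08 and -0.17. Divided by this balance, an alternative chosen after seeing the data, the difference of the regulatory light to heavy chain ratio was 0.72 at P14 and 0.23 at P90, and that of the essential light to heavy chain ratio -0.41 and -0.60 (exact p = 0.1, 0.2, 0.1 and 0.1). Myl2 (633 bp of exon) and Myl3 (898 bp) are short by this cut, and Myh6 (6079 bp) is long. The part of this balance in the differences of these single genes was not tested.

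**Figure D5:**
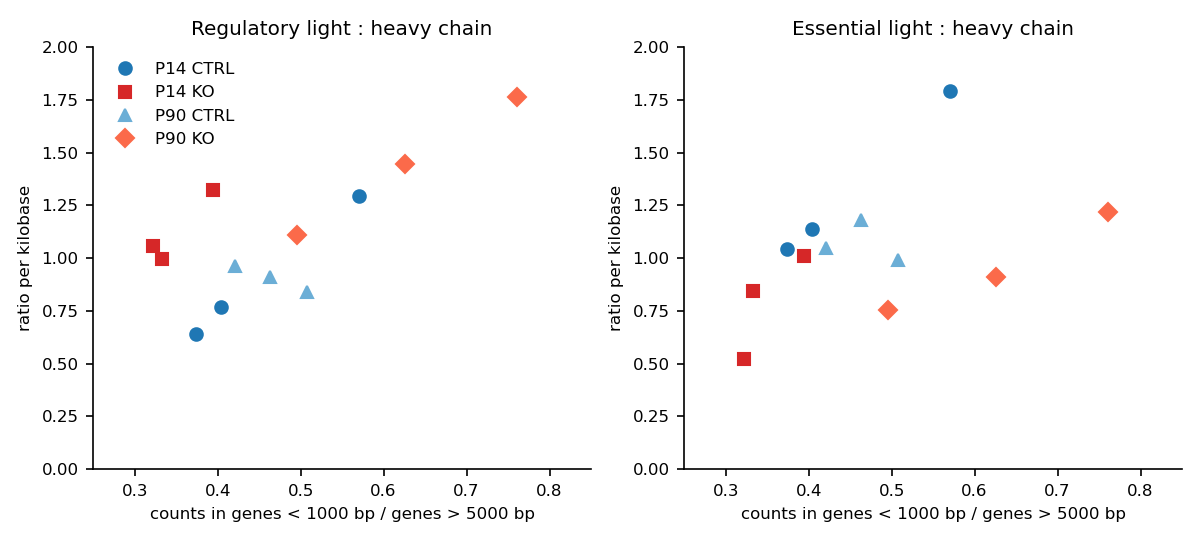
Ratio of regulatory or essential light chain to heavy chain RPKM in each library against the counts of all other genes under 1000 bp over those above 5000 bp. P90 KO libraries reach the highest short-to-long balance, 0.760, and the highest regulatory light to heavy chain ratio, 1.76.

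The genes most like the other members over the 12 samples were as follows, by Pearson's r of log2 CPM among 12833 genes and as a description only, since the points share libraries and depth. Myl3 was followed most closely by Itgb1bp2, which encodes the muscle chaperone melusin (r = 0.990), and Ckm, muscle creatine kinase (r = 0.973), and Mylk3 by the transcription factor gene Etv5 (r = 0.963) and Tlr2 (r = 0.948). Itgb1bp2 fell from 478 to 135 CPM at P14 in the group means (log2 fold change -1.83 ± 0.31, adjusted p = 0.0153) and went from 345 to 214 CPM at P90 (-0.68 ± 0.15, adjusted p = 0.0852). Ckm fell at both stages (-1.96 ± 0.37 with an adjusted p of 0.0200, and -0.99 ± 0.12 with 0.00755). Myl2 was followed by the short housekeeping genes Rpl13a and Pfdn2 (r = 0.968 and 0.967), Myh6 by Nup62 and Shmt1 (0.932 and 0.909), Myh7 by Icosl and Adamtsl4 (0.919 and 0.903) and Myh7b by Hnrnpm and Snx1 (0.907 and 0.905). Among the members, Myl4 and Myl7 moved together most (r = 0.802), Myh6 and Myl3 had r = 0.747, and Myh6 and Myh7 had r = -0.756, n = 12 samples each.

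The other genes of the myosin system were followed in 5 lists. Across all genes tested 8.59% passed at P14, 3.99% as higher and 4.6% as lower, and 0.39% passed at P90. The lists were not tested as sets against these shares. Of the 8 nonmuscle and smooth muscle myosin chains, 2 rose at P14 and none fell: Myh10, the nonmuscle myosin IIB heavy chain, from 30.3 to 60.4 CPM (0.99 ± 0.17, adjusted p = 0.0163), and Myl12a, a nonmuscle regulatory light chain, from 648 to 1109 CPM (0.77 ± 0.12, adjusted p = 0.0132). The list's median log2 fold change was 0.20, against 0.00 over all genes. Myl12a rose at P90 too (0.56 ± 0.10, adjusted p = 0.0409, or 0.0953 with all 12 samples in the fit), as 1 of the 8. The 6 markers of smooth muscle cells and pericytes, which include Myh11 of this list, summed to between 895 and 1382 CPM in P14 CTRL and between 244 and 469 in P14 KO. Most of that sum was Acta2, and the other 5 summed to between 48.9 and 101 CPM in P14 CTRL and between 60.3 and 87.2 in P14 KO, with overlap. Of the skeletal and embryonic striated chains, 2 of 9 were tested at P14 and 1 at P90, and none passed. Myl1, the skeletal essential light chain, was at 17.6 ± 1.13 CPM in P14 CTRL and 15.8 ± 4.47 in P14 KO (-0.16 ± 0.21, adjusted p = 0.695) and differed by -0.16 ± 0.20 at P90 (adjusted p = 0.724), and Myl6b stayed under 1 CPM (-0.65 ± 0.44 at P14, adjusted p = 0.403).

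Of the light chain kinases and phosphatase subunits other than Mylk3, 0 of 12 passed at P14 and 0 of 11 at P90. Of all genes tested 8.59% and 0.39% did. The 2 most abundant were Ppp1cb, the myosin phosphatase catalytic subunit, with differences of -0.62 ± 0.21 (adjusted p = 0.105, but 0.0318 with DESeq2 and 0.0260 with all 12 samples in the fit) and -0.27 ± 0.10 (adjusted p = 0.225), and its inhibitor gene Ppp1r14c, with 0.09 ± 0.18 (adjusted p = 0.805) and 0.33 ± 0.12 (adjusted p = 0.212). Of 11 tested genes for myosin binding, folding and turnover, 2 rose and 2 fell at P14, against 3.99% and 4.6% of all genes. Mybpc2, the fast skeletal isoform of myosin binding protein C, rose from 40.0 to 156 CPM (1.96 ± 0.21, adjusted p = 0.00406), and Hsp90aa1, a chaperone used in myosin folding, from 60.2 to 112 CPM (0.89 ± 0.12, adjusted p = 0.00976). The muscle ubiquitin ligase genes Trim54 (-0.94 ± 0.24, adjusted p = 0.0477) and Trim55 (-0.51 ± 0.10, adjusted p = 0.0222) fell. Neither passed with total counts (adjusted p = 0.0592 and 0.107), Trim54 also missed with the other scalings (RLE, adjusted p = 0.05001, and TMM without the 8 genes, 0.05008), and of 6 fits without 1 library each Trim54 passed in 1 and Trim55 in 2. Of such fits Mybpc2 and Hsp90aa1 passed in 6 of 6 at P14, Myh10 and Myl12a in 4, and at P90 Myl12a and Hsp90aa1 in 1. At P90 Hsp90aa1 alone passed in that list (0.75 ± 0.13, adjusted p = 0.0494), and it did not with all 12 samples in the fit (adjusted p = 0.0953). It also missed with RLE (adjusted p = 0.0510), total counts (0.0514) and TMM without the 8 genes (0.0521). Of 17 regulators of heavy chain gene choice, which include the thyroid hormone receptors and Tead1, 1 fell at P14 and 0 passed at P90. Of all genes tested 4.6% passed as lower at P14 and 0.39% passed at P90. The regulator that fell was Rxrg, a retinoid X receptor that pairs with thyroid hormone receptors (-1.47 ± 0.22, adjusted p = 0.0116).

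Counts of the heavy chain genes carry a limit from shared sequence. Of the 50-base windows of the Myh6 transcript, 22.64% also occur in Myh7, and 22.21% of those of Myh7 occur in Myh6, whereas the other members shared none. Myh7 exons also overlap 463 bp of exons of D830015G02Rik, a long noncoding RNA gene on the opposite strand, and Myh7b exons overlap 31 bp of Trpc4ap. How reads that fit several places and the strand of reads were treated is not given in the sources used here, so small Myh7 counts beside abundant Myh6 are uncertain.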

How the data were processed

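Reads of 12 CM samples were aligned to mm10 with STAR 2.5.3a and counted per gene with featureCounts (Subread 1.5.2) by the authors, per the submitters' processing notes, and the raw counts, not normalized, were deposited in 2 tables of 23337 genes. Samples were grouped by their titles. The analysis used edgeR 4.0.16 and limma 3.58.1 under R 4.3.3, and DESeq2 1.42.0 as an alternative. Low genes were removed by filterByExpr, libraries were scaled by TMM, and each comparison was fitted on its own samples by the quasi-likelihood F-test, with p-values adjusted after Benjamini and Hochberg over all genes tested. P-values measure the spread between the samples of a group, described in GEO as biological replicates. The SE was taken from the fold change and its F value. CPM and RPKM used TMM factors over all 12 samples, and isoform ratios and class sums were compared by exact two-sided permutation tests. The fits were tested on simulated data.

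The 8 genes, the 5 lists of related genes and the markers were chosen with earlier results of these data known. Named from each list were up to 6 genes past the threshold at either stage, by the largest fold change, or the 2 most abundant where none passed, and for each member the 2 genes of highest correlation over the 12 samples. The replicate number was tried as a block. At P14 the deviations of same-numbered KO and CTRL samples had r = 0.128, 0.122 and 0.444. CTRL 1 with KO 2 (r = 0.163) and CTRL 2 with KO 1 (r = 0.140) correlated slightly more than replicates 1 and 2 did with their own number. Deviations within a group of 3 cancel, so a high r for replicate 3 pulls those among replicates 1 and 2 upward. These values therefore do not establish a pairing, and the labels do not say what the number marks. The blocked value is given at P14 where it changes a call. At P90 the same-numbered samples had r = 0.249, 0.0101 and 0.0687. The alternatives were DESeq2, other scalings, no filter, the block, all 12 samples in the fit, leaving out each sample, and for ratios 1 added count or no length correction. Counts have no molecular identifiers, so the floor of 3 counts covers counting error only.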

Additional observations from a re-analysis of the deposited data

Results flagged for a closer look

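The KO effect differed between the stages by the interaction test in edgeR for 3 of the genes named beside the myosin chains, and for 0 of the 8 chain and kinase genes. Across all 12841 genes tested 1.78% passed. The 3 genes had been named because they passed at P14 or P90 in these same samples, which favours interaction calls. Their number therefore cannot be compared with that share or with the 8 genes. The neonatal minus the adult log2 effect was 1.502 ± 0.25 for Mybpc2 (adjusted p = 0.0210), 1.12 ± 0.21 for Myh10 (adjusted p = 0.0257) and -1.36 ± 0.26 for Rxrg (adjusted p = 0.0257). Mybpc2 was at 40.0 CPM in P14 CTRL and 156 in P14 KO, against 37.2 and 51.3 CPM at P90. Myh10 was at 30.3 and 60.4 CPM at P14 and at 15.4 and 14.1 CPM at P90, and Rxrg at 99.5 and 36.1 CPM at P14 and at 158 and 147 CPM at P90, CTRL first. When each of the 12 libraries was left out in turn, Mybpc2 passed in 8 fits, Rxrg in 7 and Myh10 in 5. Groups of 3 are too small for the test of a single outlying sample.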

How the results depend on the processing

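At P14, 1078 genes passed, against 1798 with DESeq2, 1724 with total counts and 2088 with all 12 samples in the fit, and 111 to 1004 when 1 library was left out. Of the 8 genes 3 passed, and 0 to 3 without 1 library. At P90, 46 genes passed, against 312 with DESeq2, 701 with no filter, 655 with the replicate block and 3 with all 12 samples, and 6 to 51 without 1 library. Of the 8 genes none passed, against 2 with DESeq2, 1 with total counts (Myl3), 3 with no filter, 3 with the replicate block and 0 to 1 without 1 library. With no filter and with the block the 3 were Myh6, Myh7 and Myl3. The interaction called 228 genes, against 897 with DESeq2, 474 with no filter, 687 with the replicate block and 4 to 377 without 1 library, and 0 of the 8 genes under every setting run. For CTRL age, 3607 genes passed and 2067 to 4768 without 1 library, and of the 8 genes 2 passed, against 4 with total counts and 2 to 3 without 1 library. The causes were not tested.

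Pairing by replicate number (the replicate block) gave 4 of the 8 at P14, with Myh7 and Myl7 added and Myh6 lost, and 3 at P90. A pairing by number was not established at either stage. For CTRL age the block added Myh7b (adjusted p = 0.0374), but there the same number joins animals of different ages, and no pairing was checked. Total counts moved the median of all genes by 0.22 at P14, 0.17 in the interaction and -0.13 for CTRL age, the fall of Myh6 at P14 was then -0.44 (adjusted p = 0.0848), and 3 values not past the threshold changed sign: Myl1 at P14 (0.054), the Myh7b interaction (0.14) and Myl2 with age (-0.072). With all 12 samples in the fit, Myl4 at P14 had an adjusted p of 0.0610.

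Without 1 library the directions changed within these ranges, in no case past the threshold in the new direction: Myl4 at P90 -0.56 to 0.99, Myl7 at P90 -0.76 to 0.76, the Myh7 interaction -0.064 to 1.03, the Myh7b interaction -0.17 to 0.13, Myh6 with age -0.13 to 0.090, Myh7 with age -1.06 (adjusted p = 0.0485, without P14 CTRL replicate 3) to 0.021, Myl2 with age -0.083 to 0.22, Myl1 at P14 -0.34 to 0.06, Ppp1r14c at P14 -0.028 to 0.27, and the Myl7/Myl2 ratio at P90 -0.73 to 0.27. Other ratios and sums kept their direction under each alternative run. The block in the exact test cannot go below p = 0.25 with 3 pairs.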

Other observations

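The rows of the microRNA hairpins inside the heavy chain genes and of the noncoding gene opposite Myh7 were looked at after their values had been seen. Mir208b, in an intron of Myh7, had 225, 170 and 178 counts in P14 CTRL and 67, 90 and 170 in P14 KO, a log2 difference of -0.84 ± 0.32 (edgeR, adjusted p = 0.145), while Myh7 itself differed by 1.06. At P90 Mir208b was at 210, 82 and 105 counts in CTRL and 141, 106 and 66 in KO (-0.57 ± 0.23, adjusted p = 0.263). Mir208a, in an intron of Myh6, had 1 to 21 counts in every sample, and Mir499, in an intron of Myh7b, had 0 in all 12. These counts come from polyadenylated RNA and not from mature microRNAs.

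D830015G02Rik, which overlaps Myh7 on the opposite strand, was at 80.1 ± 16.2 CPM in P14 CTRL, 61.7 ± 4.38 in P14 KO, 52.5 ± 3.96 in P90 CTRL and 40.7 ± 5.53 in P90 KO (SD, n = 3). With edgeR the KO difference was -0.38 ± 0.15 at P14 (adjusted p = 0.160) and -0.36 ± 0.12 at P90 (adjusted p = 0.181), and it fell with age in CTRL by -0.61 ± 0.15 (adjusted p = 0.0169). Its direction in KO was opposite to that of Myh7 at both stages, by values that did not pass the threshold for either gene.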
